A study of Mus musculus with 30 samples.

Results

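Skeletal muscle (SM, dissected from the thigh) of fed mice was set against epididymal white adipose tissue (WAT) and liver (LIV) of fed mice, and genes were sorted by whether SM lay above or below each of the other tissues. The mice were male C57Bl/6 (C57Bl/6 J in the study's methods), 10 to 12 weeks old, with free access to normal chow, and no allele or agent separated them. The fed groups held 5 SM, 5 WAT and 4 LIV arrays, 14 of the 30 arrays of the series, and a further fed LIV array was left out. Mice that had been without food for 24 h made up the other arrays, which served to see whether a difference between tissues was also present in other animals. By the study's methods 5 fed and 5 fasted mice gave the arrays, so the tissues share mice, but no source used here says which arrays came from 1 mouse. Each array gave 1 value per probe set on a log2 scale, on which a difference of 1 is a 2-fold difference. Of 18781 genes tested, 2724 were higher in SM than in WAT and in LIV, and 2385 were lower than in both.

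Skeletal muscle fibres are long cells filled with sarcomeres, in which thick filaments of myosin slide along thin filaments of actin between Z-discs. A nerve impulse reaches the fibre at the neuromuscular junction and spreads into the transverse tubules, where a voltage sensor opens the calcium release channel of the sarcoplasmic reticulum. Calcium binds troponin, contraction starts, and a calcium pump ends it. Slow fibres use the myosin heavy chain Myh7, and fast fibres use Myh2, Myh1 or Myh4. Many enzymes of glycogen, phosphagen and mitochondrial metabolism exist in a muscle form and in a form of other tissues, encoded by separate genes.

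Acta1, the actin of the thin filament of skeletal muscle, read 12.79, 12.80, 12.82, 12.78 and 12.85 in the 5 SM arrays, against 8.28, 8.64, 7.45, 8.74 and 8.52 in WAT and 5.43, 4.98, 5.39 and 5.13 in LIV. The SM arrays lay close together and far above every array of the other tissues, and every WAT array lay above the LIV arrays. The difference was 4.48 ± 0.18 against WAT and 7.58 ± 0.20 against LIV on the log2 scale (SE; limma, adjusted p = 4.35e-12 and 6.34e-15). An exact two-sided permutation test of the single values, with the smaller tail doubled, gave p = 0.00794 against WAT and 0.0159 against LIV. With that doubling these are the smallest values that these numbers of arrays allow. The label of the tissue was checked on 12 fibre genes (Acta1, Ckm, Mylpf, Tnnt3, Tnni2, Tnnc2, Actn3, Atp2a1, Pygm, Eno3, Ryr1 and Mb), whose mean was 12.59 to 12.63 in the SM arrays, against 5.01 to 5.15 in those of WAT and 4.49 to 4.66 in those of LIV. These are whole tissues, so that fewer cells of a type and less RNA per cell cannot be told apart in any of the values below.

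The promoters of Acta1 and of the 3 genes with the largest difference from both tissues are shown because these genes mark SM against both other tissues. They are the 250 bases before the start in RefSeq's GRCm38.p6, written 5′ to 3′ on the strand of the gene. Capitals mark every match, on either strand, to CAGCTG (an E-box form bound by myogenic factors), CATTCC (the core of the MCAT element), TATAAA, the MEF2 motif and the CArG box of serum response factor.
Acta1, chr8:123894776-123895025, minus strand: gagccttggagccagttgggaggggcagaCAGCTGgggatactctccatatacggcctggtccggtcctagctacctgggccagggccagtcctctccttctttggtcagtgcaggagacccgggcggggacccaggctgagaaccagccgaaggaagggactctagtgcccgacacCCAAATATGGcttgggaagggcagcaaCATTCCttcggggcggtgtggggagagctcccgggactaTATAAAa
Pvalb, chr15:78206401-78206650, minus strand: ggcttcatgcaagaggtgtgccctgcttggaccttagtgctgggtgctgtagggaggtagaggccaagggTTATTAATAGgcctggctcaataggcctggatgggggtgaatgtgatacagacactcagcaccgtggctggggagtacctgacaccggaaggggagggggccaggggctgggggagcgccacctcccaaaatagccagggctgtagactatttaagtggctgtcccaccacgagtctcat
Myh4, chr11:67237562-67237811, plus strand: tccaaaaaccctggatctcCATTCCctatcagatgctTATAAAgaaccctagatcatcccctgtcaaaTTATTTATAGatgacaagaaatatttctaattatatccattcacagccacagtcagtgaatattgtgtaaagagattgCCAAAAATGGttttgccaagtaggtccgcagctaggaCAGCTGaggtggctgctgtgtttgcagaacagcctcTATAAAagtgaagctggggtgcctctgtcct
Atp2a1, chr7:126463074-126463323, minus strand: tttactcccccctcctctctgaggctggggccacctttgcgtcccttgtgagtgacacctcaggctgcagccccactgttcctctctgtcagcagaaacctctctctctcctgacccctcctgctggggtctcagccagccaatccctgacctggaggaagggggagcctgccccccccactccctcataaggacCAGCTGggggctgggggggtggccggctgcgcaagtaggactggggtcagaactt

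CAGCTG was present in the Acta1, Myh4 and Atp2a1 windows, the CArG box in those of Acta1 and Myh4, and the MEF2 motif in those of Pvalb and Myh4. In Myh4 a match to TATAAA on the other strand lay inside the MEF2 match. Of 383 genes at least 4-fold higher in SM than in both tissues with a window in the table, 29.2% held CAGCTG, 10.2% the MEF2 motif, 3.66% the CArG box, 16.2% CATTCC and 15.1% TATAAA. Of 173 genes at least 4-fold lower in SM, the shares in the same order were 12.1%, 2.31%, 1.16%, 15.6% and 12.1%. Over all 14723 genes with a window they were 14.3%, 2.91%, 1.47%, 13.3% and 12.7%. A match describes letters and is not a bound site, and a gene with several listed starts counted if any of its windows held the motif.

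SM was higher than WAT in 3767 genes, 20.1% of those tested, and lower in 5068 genes, 27.0% (limma, adjusted p under 0.05 and at least 1.3-fold). It was higher than LIV in 4908 genes, 26.1%, and lower in 4089 genes, 21.8%. Of all genes 14.5% were higher than both tissues and 12.7% lower than both. At a difference of at least 4-fold against both, 497 genes (2.65%) were higher and 224 genes (1.19%) lower. Larger differences lay on the high side: 77 genes were at least 64-fold higher than both tissues, and 0 genes were 64-fold lower than both. The median difference over all genes was 0.02 against WAT and 0.05 against LIV.

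**Figure D1:**
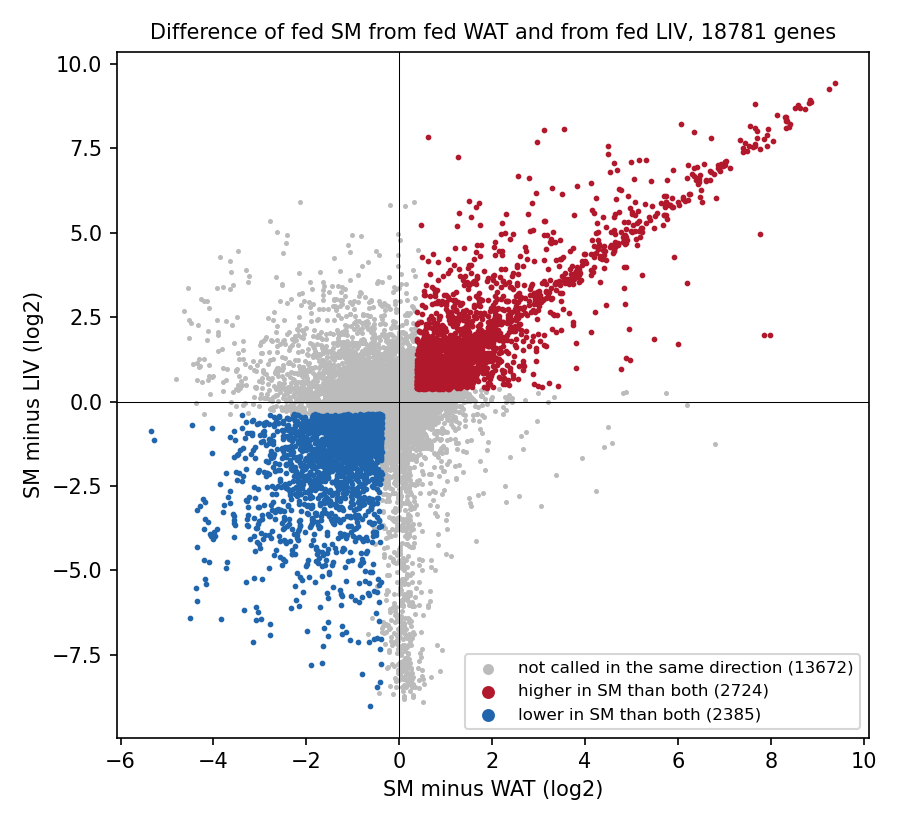
Difference of fed SM from fed WAT (x axis, log2) and from fed LIV (y axis, log2) for 18781 genes, 1 point per gene, with 2724 genes higher than both in red, 2385 lower than both in blue and the others in grey. The red points reach 9.37 on the x axis, and the blue points reach -5.34 on it.

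All 5 SM arrays lay above every WAT and LIV array in 3281 genes (17.5%) and below every one in 2736 genes (14.6%). Of the 2724 genes called higher 2644 had no overlap of arrays, and of the 2385 called lower 2281. A reading was taken as dim below the 95th percentile of 1177 probe sets of olfactory and vomeronasal receptors, which was 3.91 in SM, 3.87 in WAT and 4.01 in LIV. Of the 497 genes 4-fold higher in SM, 0 were dim in SM, 193 were dim in WAT or LIV and 124 in both of these, so that their fitted differences depend on background readings. With each dim reading set to the dim level, which gives a lower bound, 485 genes were still at least 4-fold and 74 at least 64-fold higher than both tissues. Of the 224 genes 4-fold lower, 2 were dim in SM.

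The 15 genes with the largest difference from both tissues were parts of the contractile or calcium handling apparatus, except Mylk4, a member of the myosin light chain kinase family. Their smaller fitted difference ran from 8.23 to 9.37, and from 7.54 to 8.87 with dim readings at the dim level. Their SD over the SM arrays ran from 0.02 to 0.15, and 9 of the 15 were dim in WAT and in LIV. The highest reading of any probe set in the SM arrays was 13.28 to 13.36. Several of the 15 read close to it, and the part of that in their small SDs was not tested. Pvalb, the calcium buffer of fast fibres, read 12.76, 12.68, 12.70, 12.73 and 12.72 in SM, against 3.37, 3.25, 3.56, 3.37 and 3.20 in WAT and 3.25, 3.22, 3.18 and 3.46 in LIV. The groups lay far apart, with both other tissues dim, which makes SM at least 461-fold higher than WAT and at least 418-fold higher than LIV (limma, adjusted p = 7.35e-21 and 4.30e-21). These bounds set the mean of SM against the dim level of the other tissue. Myh4, the heavy chain of the fastest fibres, read 12.76 to 12.87 in the SM arrays, against 3.28 to 3.95 in those of WAT and 3.34 to 3.71 in those of LIV, at least 486-fold and 440-fold higher in SM by the same measure. Atp2a1, the calcium pump of fast fibres, averaged 13.06 ± 0.03 in SM, 4.19 ± 0.28 in WAT and 4.18 ± 0.21 in LIV (SD, n = 5, 5 and 4, as for the means below). Ttn, the giant spring between Z-disc and M-line, averaged 12.46 ± 0.03 in SM, 3.72 ± 0.04 in WAT and 3.80 ± 0.06 in LIV. Of the other genes among the 15, Casq1 stores calcium, Ryr1 releases it, Tnnc2 and Tnnt3 are fast troponin subunits, Tmod4 caps the thin filament, Myoz1, Myot and Xirp2 belong to the Z-disc or bind actin near it, Myom2 sits in the M-line and Myh1 is a fast heavy chain.

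**Figure D2:**
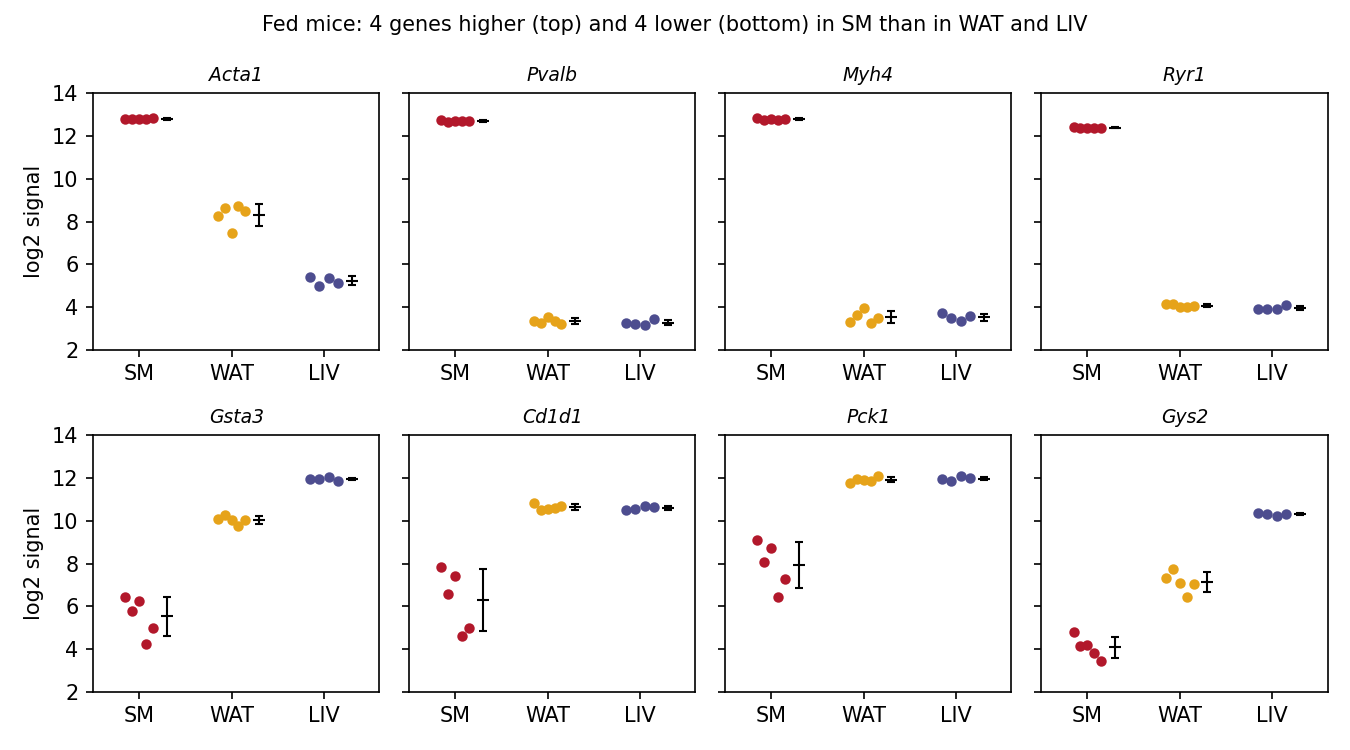
Log2 signal (y axis) of single arrays in fed SM, WAT and LIV (left to right) for 4 genes higher in SM (Acta1, Pvalb, Myh4, Ryr1) and 4 lower (Gsta3, Cd1d1, Pck1, Gys2), with the mean and SD beside the points. In the upper genes the 5 SM points of a gene nearly coincide, and in the lower genes they spread, in Cd1d1 over 4.61 to 7.86, without reaching the other tissues. The upper genes read near the top of the range in SM, and the part of that in their small spread was not tested.

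Sarcomere genes were read as lists of the contractile parts. All 17 measured genes of the thick filament were higher in SM than in both tissues, with a median difference of 7.04 against WAT and 7.81 against LIV (7.04 and 7.54 with dim readings at the dim level). They included the embryonic and perinatal heavy chains with small differences: Myh3 averaged 4.04 ± 0.15 in SM, 3.40 ± 0.13 in WAT and 3.40 ± 0.13 in LIV, and Myh8 5.03 ± 0.27 in SM, 3.96 ± 0.16 in WAT and 4.07 ± 0.13 in LIV. Myl1, a light chain of fast myosin, averaged 12.44 ± 0.05 in SM, 9.32 ± 0.24 in WAT and 4.41 ± 0.33 in LIV. Of 16 genes of the thin filament 15 were higher, with medians of 5.10 against WAT and 5.59 against LIV (5.08 and 5.40 with dim readings at the dim level). The exception, the tropomyosin Tpm3, was lower (9.37 ± 0.46 in SM, 10.86 ± 0.05 in WAT and 10.14 ± 0.10 in LIV), but 7 probe sets carry its name and another of them read 8.36 in SM, 6.11 in WAT and 5.25 in LIV, so its direction is uncertain. In the Z-disc list 21 of 23 genes were higher, with medians of 5.75 against WAT and 6.03 against LIV (5.62 and 5.77 with dim readings at the dim level), and Actn3, the fast alpha-actinin, averaged 12.80 ± 0.02 in SM, 5.14 ± 0.20 in WAT and 4.00 ± 0.07 in LIV.

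Of 24 genes of excitation and contraction coupling 21 were higher in SM, with medians of 5.86 against WAT and 5.84 against LIV (5.73 and 5.79 with dim readings at the dim level). The release channel Ryr1 averaged 12.40 ± 0.02 in SM, 4.07 ± 0.07 in WAT and 3.97 ± 0.10 in LIV. Atp2a2, the calcium pump of slow fibres and of many other cells, averaged 10.13 ± 1.23 in SM, 10.26 ± 0.08 in WAT and 10.69 ± 0.06 in LIV and was not called against either tissue. In the membrane, 8 of 11 genes of the dystrophin complex and sarcolemma were higher, with medians of 0.83 against WAT and 4.12 against LIV. Dystrophin itself, Dmd, averaged 9.96 ± 0.10 in SM, 5.00 ± 0.24 in WAT and 4.23 ± 0.07 in LIV, and alpha-sarcoglycan, Sgca, 10.41 ± 0.13 in SM, 3.80 ± 0.20 in WAT and 3.85 ± 0.16 in LIV. Delta-sarcoglycan, Sgcd, averaged 9.84 ± 0.11 in SM, 9.72 ± 0.11 in WAT and 4.05 ± 0.17 in LIV, and its difference from WAT was 0.12 ± 0.08 (limma, adjusted p = 0.231).

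Of 12 genes of the neuromuscular junction 9 were higher in SM, with medians of 2.09 against WAT and 2.96 against LIV (2.09 and 2.77 with dim readings at the dim level). Musk, the receptor kinase that gathers acetylcholine receptors, read 8.74, 9.20, 8.51, 9.32 and 9.34 in SM, against 3.89 to 4.05 in WAT arrays and 3.72 to 3.86 in LIV arrays. The receptor subunit Chrna1 and the adult subunit Chrne were dim in WAT and in LIV and at least 9.47-fold and 13.9-fold higher in SM than in LIV. The fetal subunit Chrng averaged 4.14 ± 0.15 in SM, 4.06 ± 0.02 in WAT and 4.25 ± 0.09 in LIV and was not called. Agrn, which encodes agrin, the signal from the nerve that acts on Musk, was the 1 member lower than both and averaged 6.20 ± 0.06 in SM, 7.30 ± 0.13 in WAT and 7.48 ± 0.09 in LIV.

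All 17 measured regulators of the myogenic list were higher in SM, with medians of 1.62 against WAT and 3.29 against LIV. Myf6, the myogenic factor of mature fibres, averaged 10.32 ± 0.03 in SM, 3.87 ± 0.07 in WAT and 3.81 ± 0.06 in LIV, and Tbx15, a T-box factor, read 10.89 to 11.11 in the SM arrays, against 3.39 to 3.53 in those of WAT and 3.35 to 3.50 in those of LIV. No SM array of either gene came near the other tissues. Myod1, which turns other cells into muscle when expressed in them, averaged 7.54 ± 0.24 in SM, 3.82 ± 0.08 in WAT and 4.02 ± 0.08 in LIV, with WAT dim. Mef2a and Mef2d, which many cells use, were 0.83 and 1.08 higher than in WAT, and Mef2c 3.12. Markers of satellite cells, the stem cells of muscle, were higher in all 4 cases (Pax7, Myf5, Cdh15 and Calcr), with a mean of 5.07 to 5.44 in the SM arrays, against 3.60 to 3.86 in those of WAT and 3.77 to 3.97 in those of LIV.

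MicroRNA genes of muscle add a further layer, since their mature products repress mRNAs through a seed of bases 2 to 8. Mature sequences from RefSeq's GRCm38.p6, with the seed in capitals, are shown for 2 genes called higher in SM (first) and 2 that were not. Of Mir1a-1 the 5p strand is shown and not the 3p strand, which has another seed. The seed of miR-206-3p is shared by 2 other mature sequences. The seeds below therefore do not set called against uncalled genes.
miR-133b-3p (chr1:20682834-20682855, plus strand): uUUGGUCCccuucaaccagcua
miR-1a-1-5p (chr2:180389057-180389079, plus strand): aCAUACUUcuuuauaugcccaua
miR-206-3p (chr1:20679055-20679076, plus strand): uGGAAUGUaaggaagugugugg
miR-499-5p (chr2:155622893-155622913, plus strand): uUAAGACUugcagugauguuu

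The array reads the transcript around the precursor, not the mature strand. Of 9 measured genes 5 were higher in SM than in both tissues, with list medians of 1.07 against WAT and 1.01 against LIV (0.90 and 0.76 with dim readings at the dim level). Mir133a-2 read 6.66, 6.77, 6.52, 7.11 and 6.67 in SM, against 2.89 to 3.16 in WAT arrays and 2.94 to 3.18 in LIV arrays. Mir1a-1, its neighbour in the genome, read 4.92 to 5.72 in the SM arrays, against 2.64 to 2.75 in those of WAT and 2.58 to 2.82 in those of LIV, again without overlap and with both other tissues dim. The second copies Mir1a-2 and Mir133a-1 were dim in WAT and in LIV and at least 2.73-fold and 3.37-fold higher in SM than in LIV, and Mir133b averaged 4.77 ± 0.85 in SM, 3.70 ± 0.09 in WAT and 3.75 ± 0.20 in LIV. Mir206 (2.73 ± 0.16 in SM, 2.57 ± 0.05 in WAT and 2.54 ± 0.09 in LIV), Mir208a (3.07 ± 0.03 in SM, 3.00 ± 0.12 in WAT and 3.09 ± 0.08 in LIV) and Mir499 (3.06 ± 0.13 in SM, 3.00 ± 0.08 in WAT and 3.11 ± 0.11 in LIV) were dim in all 3 tissues, so that a difference could not be detected. Mir486 averaged 6.10 ± 0.12 in SM, 5.60 ± 0.05 in WAT and 5.93 ± 0.13 in LIV and was called against WAT alone.

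Energy genes were higher in SM to very different extents. Of 8 genes of phosphagen and oxygen stores 7 were higher, with medians of 6.94 against WAT and 7.35 against LIV (6.80 and 7.21 with dim readings at the dim level). Ckm, the creatine kinase of muscle, read 12.62 to 12.75 in the SM arrays, against 4.69 to 4.81 in those of WAT and 4.74 to 4.83 in those of LIV, and a second probe set that names Ckm gave a smaller difference, 3.50 against WAT and 3.31 against LIV. Mb, which encodes myoglobin, averaged 12.17 ± 0.15 in SM, 4.47 ± 0.14 in WAT and 4.17 ± 0.03 in LIV. Of 21 genes of glycogen use and glycolysis 19 were higher, with medians of 2.19 against WAT and 4.87 against LIV. Ppp1r3a, a subunit that targets protein phosphatase 1 to glycogen, averaged 11.06 ± 0.06 in SM, 3.62 ± 0.25 in WAT and 3.40 ± 0.16 in LIV. Gapdh averaged 13.16 ± 0.02 in SM, 12.92 ± 0.09 in WAT and 12.93 ± 0.01 in LIV, less than 1.3-fold apart. These means lay near the top of the range of the arrays, and the part of that in the small difference was not tested.

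In several pairs of enzyme forms the muscle form was higher in SM and the other form lower. Pygm, the muscle glycogen phosphorylase, averaged 12.84 ± 0.02 in SM, 6.14 ± 0.18 in WAT and 5.03 ± 0.07 in LIV, whereas Pygl, the liver form, averaged 5.97 ± 0.67 in SM, 9.67 ± 0.23 in WAT and 10.72 ± 0.01 in LIV. The glycogen synthase Gys1 was higher by 1.28 (SE 0.07) against WAT and 5.59 (SE 0.07) against LIV, and the liver form Gys2 read 4.81, 4.13, 4.18, 3.81 and 3.47 in SM, against 6.44 to 7.73 in WAT arrays and 10.24 to 10.39 in LIV arrays. The phosphoglycerate mutases split in the same way, with Pgam2 at 11.26 ± 0.11 in SM, 3.79 ± 0.12 in WAT and 3.86 ± 0.16 in LIV and Pgam1 at 7.60 ± 0.18 in SM, 10.03 ± 0.14 in WAT and 10.16 ± 0.08 in LIV. Fbp2, a fructose bisphosphatase, averaged 8.18 ± 0.16 in SM, 3.88 ± 0.35 in WAT and 3.58 ± 0.19 in LIV, with LIV dim, while the mean of Fbp1 was dim in SM and in WAT and 12.07 in LIV. The adenine nucleotide carrier of mitochondria Slc25a4 was higher by 2.56 (SE 0.08) against WAT and 6.69 (SE 0.08) against LIV, and Slc25a5 fell by 1.58 and 2.12. Over the whole lists, 4 of 9 liver and fat isozymes of sugar metabolism and 6 of 11 tissue isoforms of other enzymes and carriers were lower in SM than in both, and 0 were higher. The list medians were -0.28 against WAT and -6.24 against LIV in the isozymes, and -2.16 against WAT and -1.65 against LIV in the isoforms.

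**Figure D3:**
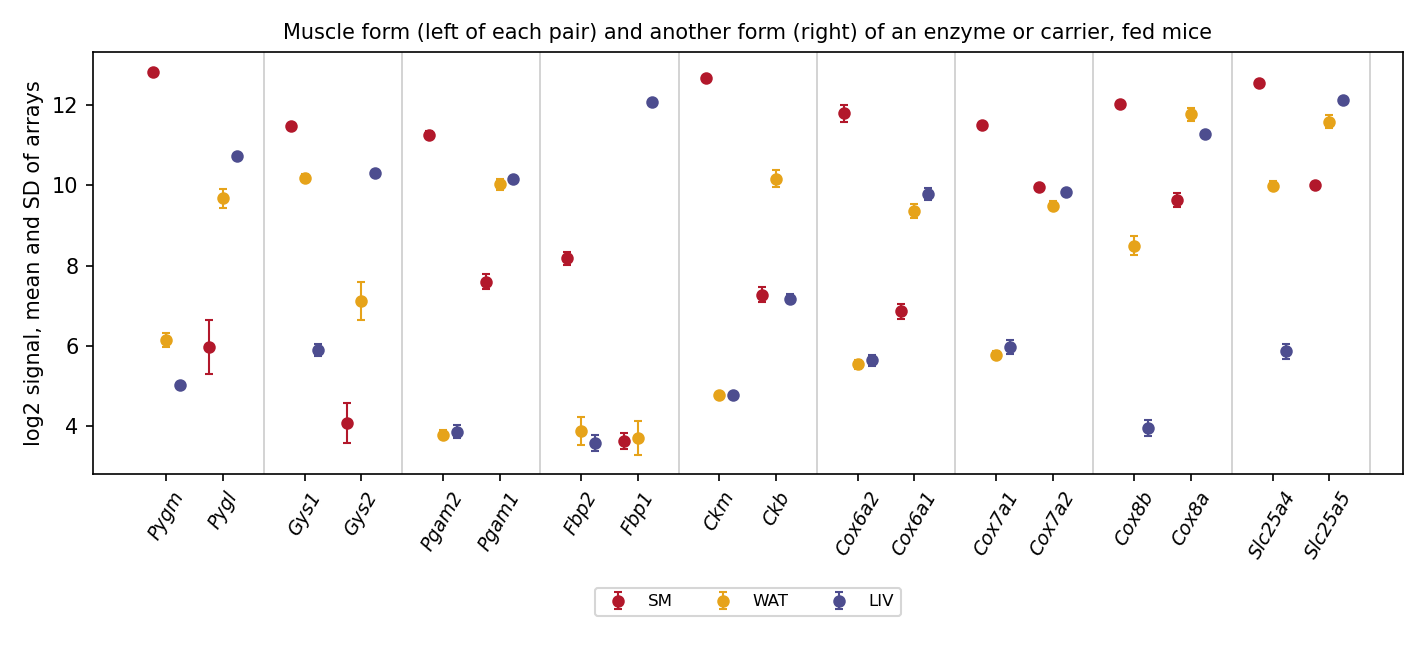
Mean log2 signal with SD (y axis) in fed SM, WAT and LIV for 9 pairs of genes, the form known from muscle on the left of each pair and another form on the right. SM is the highest of the 3 tissues in all 9 genes on the left, and on the right it was called lower than both other tissues in Pygl, Gys2, Pgam1, Cox6a1, Cox8a and Slc25a5 and not in Fbp1, Ckb and Cox7a2.

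The respiratory chain was higher in SM by small differences: 61 of 74 genes passed in both comparisons and 2 were lower, and the medians were 1.04 against WAT and 0.69 against LIV. Its large differences were muscle subunits of cytochrome c oxidase. Cox6a2 read 11.56, 12.05, 11.78, 11.97 and 11.60 in SM, against 5.34 to 5.61 in WAT arrays and 5.49 to 5.79 in LIV arrays. The SM arrays of Cox6a2 lay far above the others, and Cox7a1 was higher by 5.74 (SE 0.07) against WAT and 5.54 (SE 0.08) against LIV. Cox8b averaged 12.03 ± 0.07 in SM, 8.50 ± 0.24 in WAT and 3.96 ± 0.19 in LIV. The 2 genes lower in SM were the counterparts in other tissues, Cox6a1 (6.86 ± 0.19 in SM, 9.36 ± 0.17 in WAT and 9.79 ± 0.15 in LIV) and Cox8a (9.63 ± 0.18 in SM, 11.77 ± 0.15 in WAT and 11.28 ± 0.05 in LIV). Of 18 genes of the tricarboxylic acid cycle 15 were higher, with medians of 0.84 against WAT and 0.95 against LIV, and Idh3a, a subunit of isocitrate dehydrogenase, was higher by 2.20 (SE 0.05) against WAT and 3.40 (SE 0.06) against LIV.

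Fatty acid use, a main fuel route of resting muscle, had 7 of 23 genes higher than in both tissues and 0 lower, beside 14.5% and 12.7% over all genes. Its medians were 0.66 against WAT and 0.22 against LIV. Fabp3, the fatty acid binding protein of muscle and heart, averaged 10.86 ± 0.12 in SM, 3.99 ± 0.11 in WAT and 3.85 ± 0.26 in LIV. Pdk4, which restrains pyruvate oxidation, was higher by 2.62 (SE 0.09) against WAT and 3.10 (SE 0.10) against LIV, and the coactivator Ppargc1a by 2.47 (SE 0.10) against WAT and 1.35 (SE 0.11) against LIV. Ucp3, an uncoupling protein, averaged 9.29 ± 0.33 in SM, 7.64 ± 0.32 in WAT and 3.52 ± 0.27 in LIV, and with LIV dim SM was at least 38.7-fold higher there. Cd36 and Lpl, which serve fatty acid uptake, lay between the other tissues: Cd36 averaged 11.20 ± 0.19 in SM, 12.46 ± 0.12 in WAT and 9.19 ± 0.21 in LIV and Lpl 10.94 ± 0.41 in SM, 12.58 ± 0.12 in WAT and 7.65 ± 0.06 in LIV. The dehydrogenase Acadl averaged 10.07 ± 0.13 in SM, 10.08 ± 0.16 in WAT and 9.85 ± 0.09 in LIV and was not called.

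Genes of protein turnover and secreted signals completed the high side. All 22 ubiquitin ligases and adaptors of a list drawn from genes known in muscle were higher, with medians of 5.55 against WAT and 5.84 against LIV (5.21 and 5.63 with dim readings at the dim level). Klhl31, a kelch protein, averaged 12.07 ± 0.09 in SM, 3.67 ± 0.09 in WAT and 3.93 ± 0.19 in LIV, and Asb5, an ankyrin repeat adaptor, 11.22 ± 0.03 in SM, 3.60 ± 0.14 in WAT and 3.67 ± 0.12 in LIV. The proteasome, which all cells need, had 9 of 30 genes higher than both tissues and 0 lower, beside 14.5% and 12.7% over all genes. Its medians were 0.75 against WAT and 0.21 against LIV. Against WAT alone 24 of the 30 genes were higher, beside 20.1% of all genes, and against LIV alone 9, beside 26.1%. Psmd6 of its regulatory particle was higher by 1.82 (SE 0.07) against WAT and 1.17 (SE 0.07) against LIV. Among 9 secreted factors 6 were higher, with medians of 0.92 against WAT and 2.00 against LIV. Mstn, which encodes the growth inhibitor myostatin, read 9.74, 9.95, 9.67, 10.17 and 10.16 in SM, against 3.40 to 3.59 in WAT arrays and 3.28 to 3.45 in LIV arrays. Ostn, which encodes musclin, read 7.58 to 9.07 in the SM arrays, against 3.18 to 3.43 in those of WAT and 3.31 to 3.59 in those of LIV, also without overlap.

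On the low side stood lipid synthesis, secretion and antigen presentation. Of 13 genes of fatty acid synthesis 10 were lower in SM than in both tissues and 0 higher, with medians of -2.50 against WAT and -1.80 against LIV. Slc25a1, the citrate carrier, read 8.72, 8.01, 8.44, 7.05 and 7.59 in SM, against 11.53 to 11.98 in WAT arrays and 11.16 to 11.29 in LIV arrays. Its 5 SM arrays lay below all others, as did those of Acly, which makes acetyl-CoA from citrate and averaged 6.98 ± 0.42 in SM, 10.26 ± 0.65 in WAT and 9.93 ± 0.16 in LIV. Of 17 genes of cholesterol synthesis 12 were lower and 0 higher, with medians of -1.06 against WAT and -3.01 against LIV, and Ebp, a sterol isomerase, averaged 6.91 ± 0.15 in SM, 8.82 ± 0.07 in WAT and 10.62 ± 0.07 in LIV. Of 19 peroxisome genes 11 were lower, with medians of -0.63 against WAT and -1.57 against LIV, such as catalase, Cat (10.68 ± 0.12 in SM, 12.27 ± 0.07 in WAT and 12.63 ± 0.05 in LIV), and 1, Pex10, was higher (8.51 ± 0.05 in SM, 7.39 ± 0.15 in WAT and 7.26 ± 0.10 in LIV). Of 26 genes of the secretory pathway 13 were lower, with medians of -0.38 against WAT and -0.97 against LIV, among them Sec61a1, the protein channel of the endoplasmic reticulum (8.63 ± 0.09 in SM, 10.56 ± 0.05 in WAT and 11.06 ± 0.05 in LIV), and 1, Srpr, was higher (10.62 ± 0.03 in SM, 9.34 ± 0.07 in WAT and 10.05 ± 0.09 in LIV).

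Of 14 genes of antigen presentation 7 were lower and 0 higher, with medians of -1.87 against WAT and -0.71 against LIV. They were of class I and its peptide supply, H2-K1, B2m, Tap1, Tapbp, Psmb8, Psmb9 and Psmb10, and H2-K1 averaged 8.52 ± 0.19 in SM, 10.75 ± 0.13 in WAT and 11.07 ± 0.06 in LIV. The class II genes H2-Aa, H2-Ab1, H2-Eb1, Cd74 and H2-DMa and their activator Ciita were lower than in WAT alone. All 10 macrophage markers were lower in SM than in WAT, beside 27.0% of all genes, and 7 of them lower than in LIV, beside 21.8%. Their mean was 6.44 to 6.90 in the SM arrays, against 8.73 to 8.91 in those of WAT and 7.31 to 7.73 in those of LIV. The part of macrophages in the values of the antigen presentation list was not tested.

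**Figure D4:**
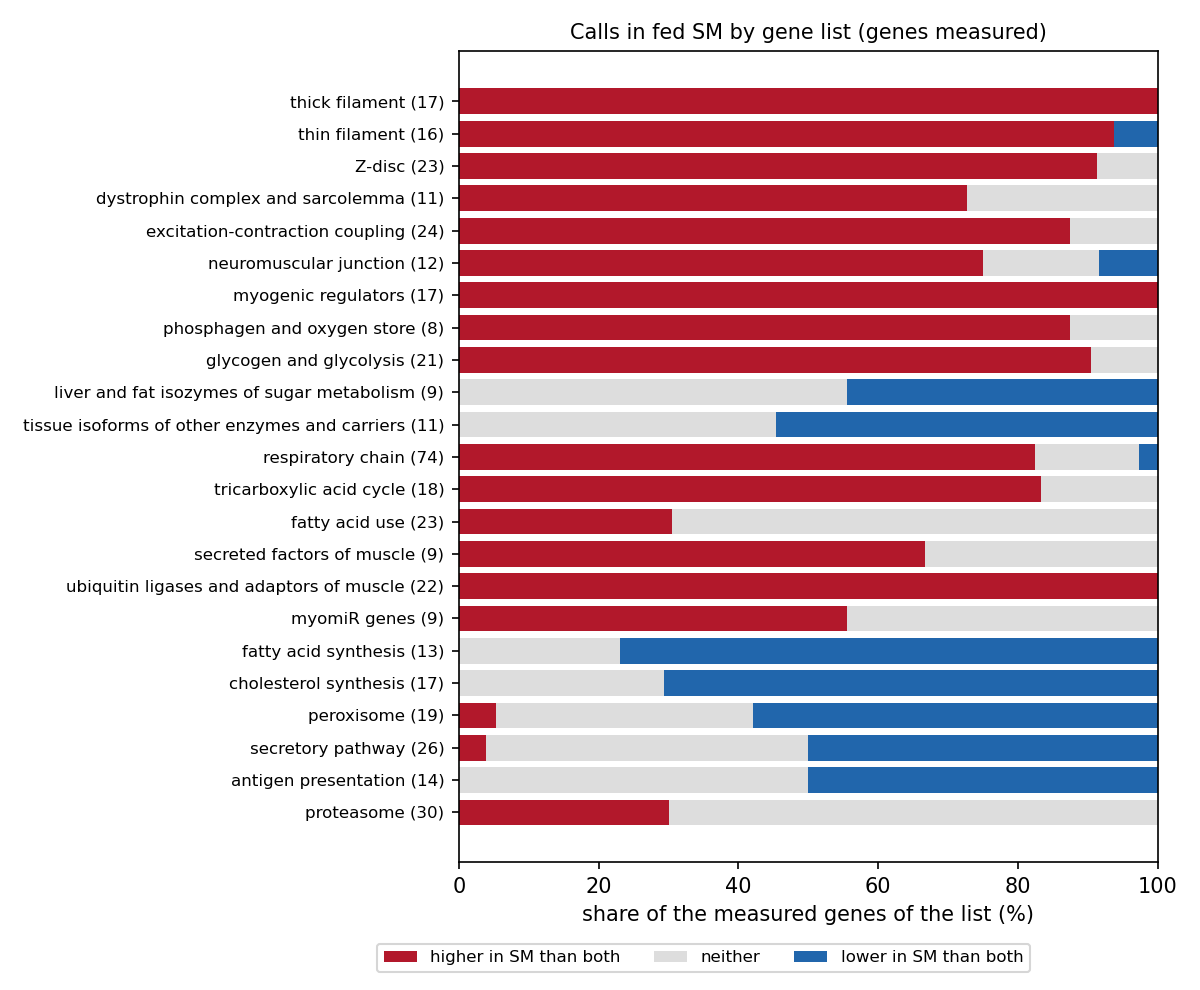
Share of the measured genes of each list (x axis, percent, with the number measured beside the list's name) that were higher in fed SM than in fed WAT and fed LIV, lower than both, or neither, in 23 lists. The bars of the thick filament, the myogenic regulators and the ubiquitin ligases are wholly on the higher side and most genes of lipid synthesis on the lower side, beside 14.5% higher and 12.7% lower over all genes.

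The 12 genes with the largest drop against both tissues included plasma proteins and enzymes of metabolism. They were Gsta3 (a glutathione transferase), Orm1, Hp and C2 (plasma proteins of the acute phase and of complement), Slc6a13 (a carrier of GABA and taurine), Cd1d1 (which presents lipids to T cells), Rbm47 (an RNA binding protein), Ces1f (a carboxylesterase), Fah (of tyrosine breakdown), Rbp4 (the retinol carrier), Pck1 (of gluconeogenesis and glyceroneogenesis) and Cdo1 (of cysteine breakdown). Gsta3 read 6.43, 5.80, 6.24, 4.24 and 5.01 in SM, against 9.76 to 10.30 in WAT arrays and 11.89 to 12.05 in LIV arrays, a difference of -4.52 ± 0.31 and -6.42 ± 0.33 (SE; limma, adjusted p = 2.15e-09 and 4.48e-11). Cd1d1 read 7.86, 6.57, 7.45, 4.61 and 5.00 in SM, against 10.52 to 10.86 in WAT arrays and 10.51 to 10.70 in LIV arrays. Pck1 read 9.09, 8.06, 8.72, 6.44 and 7.29 in SM, against 11.79 to 12.11 in WAT arrays and 11.88 to 12.08 in LIV arrays. In all 3 genes the SM arrays lay below every other array, and SM 1 was the highest and SM 4 the lowest of the SM arrays.

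Among the SM arrays the mean of fat cell markers was also highest in SM 1 and lowest in SM 4. The mean of 8 adipocyte markers (Adipoq, Plin1, Fabp4, Cidec, Lep, Lipe, Pnpla2 and Retn) was 9.91, 9.22, 9.65, 7.93 and 8.44 in SM 1 to 5, against 12.03 to 12.26 in WAT arrays and 5.59 to 5.88 in LIV arrays. All 8 were lower in SM than in WAT and higher than in LIV, as were 1123 of all 18781 genes, and 0 of them were dim in any SM array. A second probe set that names Lipe averaged 5.85 in SM, 8.20 in WAT and 5.65 in LIV. Its difference from LIV was 0.20, less than 1.3-fold, so the direction of Lipe against LIV is less certain. Lep, which encodes leptin, read 8.23, 7.12, 7.79, 4.85 and 5.73 in SM, against 10.79 to 11.14 in WAT arrays and 3.60 to 3.97 in LIV arrays. The 9 measured hepatocyte markers averaged 4.70 to 5.70 in SM and 5.21 to 5.42 in WAT, against 12.46 to 12.53 in LIV.

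Of the 224 genes 4-fold lower in SM, 147 had their highest SM reading in SM 1, and 97 had their lowest in SM 4 and 103 in SM 5. These counts were not set against those over all genes, so whether the order of arrays is particular to the lower genes was not tested. The median SD of these 224 genes was 0.27 over the SM arrays, 0.13 over WAT and 0.08 over LIV, against 0.12, 0.13 and 0.13 for the 497 genes 4-fold higher. With SM 4 and SM 5 as the only SM arrays, a choice made after these values were seen, 502 genes were 4-fold higher and 258 lower, and the difference of Cd1d1 became -5.79 against the nearer tissue, in place of -4.30. In those arrays 9 of 14 genes of antigen presentation and 5 of 9 liver and fat isozymes were lower than both tissues, and the counts lower in fatty acid synthesis, cholesterol synthesis, peroxisome and secretory pathway were the same as in all 5. Since SM 4 and SM 5 were chosen for low readings of such genes, larger drops there can follow from the choice alone. These arrays also had the lowest means of slow-fibre markers, 5.37 and 7.05. The part of fat cells in the values of the low side was not tested.

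SM arrays differed most from each other in genes of slow fibres. Myh7, the slow heavy chain, read 10.75, 10.75, 9.11, 4.33 and 7.62 in SM, against 3.72 to 4.08 in WAT arrays and 3.89 to 4.14 in LIV arrays. SM 4 came close to the other tissues and SM 1 and SM 2 lay far above them. Tnnc1, the troponin C of slow fibres and heart, read 10.18, 10.61, 8.62, 3.86 and 7.05 in SM, against 3.80 to 3.95 in WAT arrays and 4.04 to 4.13 in LIV arrays, and SM 4 overlapped with WAT and lay below LIV. In Myl2, Tnni1 and Tnnt1 SM 4 was likewise the lowest and SM 5 the next. The mean of 7 slow-fibre markers was 10.01, 10.09, 8.32, 5.37 and 7.05 in SM 1 to 5. The fast heavy chains moved far less over the same arrays: Myh1 read 11.36 to 11.73, Myh2 10.82 to 11.63 and Myh4 12.76 to 12.87. The highest reading of any probe set in these arrays was 13.28 to 13.36, so Myh4 lay near the top of the range, and the part of that in its small spread was not tested.

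Some calls of slow-fibre genes depended on the test used and on keeping SM 4 and SM 5 as the only SM arrays. Tnnc1 averaged 8.06 ± 2.74 in SM, 3.86 ± 0.06 in WAT and 4.08 ± 0.04 in LIV, and limma called it higher than both (adjusted p = 0.000749 and 0.00194). The exact two-sided permutation test of its single values gave p = 0.0317 against WAT and 0.0794 against LIV, and that of Myl2 gave p = 0.0476 and 0.0635. With each of the 14 fed arrays left out in turn, all 7 slow-fibre markers stayed called higher than both tissues. With SM 4 and SM 5 alone Tnnc1 and Tnni1 were no longer called higher than LIV (limma, adjusted p = 0.065 and 0.0543). Myh7, Myl2, Tnnt1, Myl3 and Myoz2 stayed higher than both tissues there. SM 4 and SM 5 had the lowest means of slow-fibre markers, so such losses can follow from the choice and the fewer arrays alone. In those arrays 13 of the 16 thin filament genes stayed higher than both tissues, against 15 in all 5 arrays, and all 17 thick filament genes.

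**Figure D5:**
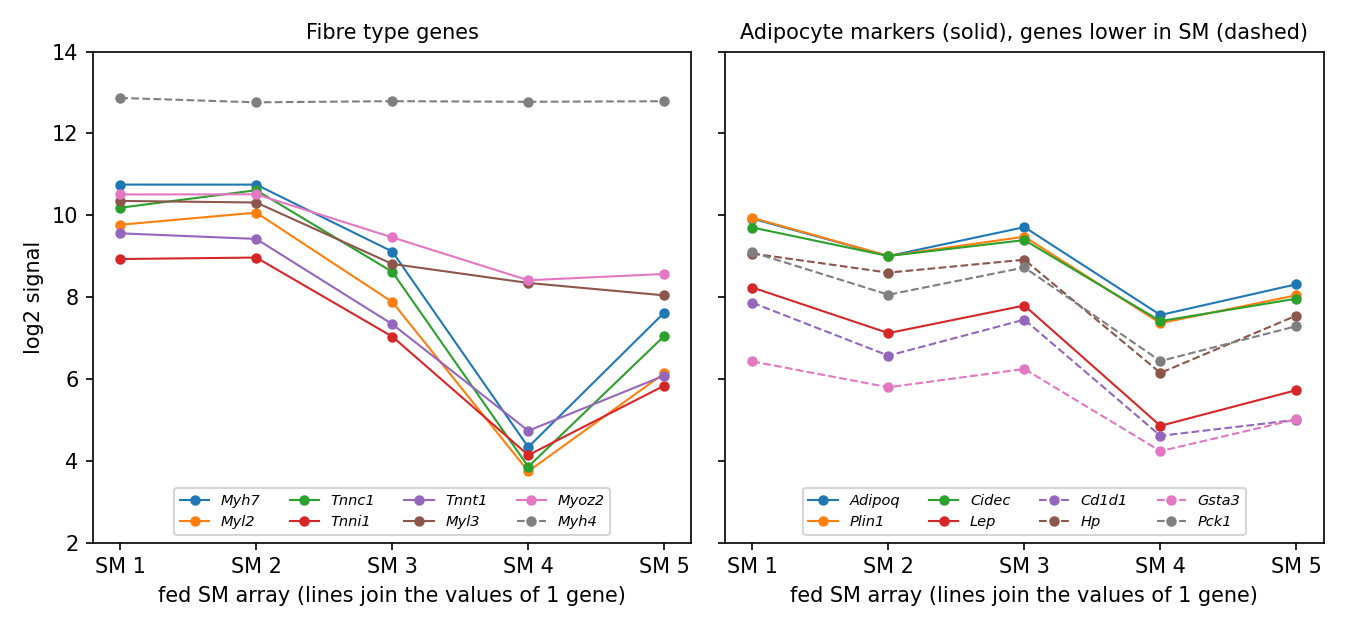
Log2 signal (y axis) in the 5 fed SM arrays (x axis), 1 line per gene; the arrays have no order. On the left slow-fibre genes run between 3.74 and 10.75 while the fast-fibre gene Myh4 stays between 12.76 and 12.87, near the top of the range, and on the right the adipocyte markers Adipoq, Plin1, Cidec and Lep (solid) and Cd1d1, Hp, Gsta3 and Pck1, lower in SM than in both other tissues (dashed), are lowest in SM 4.

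The 10 genes with the largest SD over the SM arrays began with Tnnc1, Myh7, Myl2, Tnnt1 and Tnni1, with SDs of 2.07 to 2.74. Csrp3, a Z-disc protein of slow fibres and heart, read 8.73, 9.03, 7.70, 5.17 and 5.38 in SM, against 3.91 to 4.22 in WAT arrays and 6.93 to 7.35 in LIV arrays, and was higher than WAT only. Irx5, a homeobox factor, read 7.41, 6.64, 7.65, 4.07 and 4.62 in SM, against 3.54 to 3.84 in WAT arrays and 3.49 to 3.74 in LIV arrays, and Npr3, the clearance receptor of natriuretic peptides, read 9.80, 8.66, 9.21, 6.24 and 7.24 in SM, against 11.69 to 11.99 in WAT arrays and 5.90 to 5.99 in LIV arrays. In both genes SM 4 and SM 5 were the low arrays, as in the means of the adipocyte markers and of the slow-fibre markers. Irx5 was dim in WAT and in LIV. Lgi1, a secreted protein known from neurons, read 6.51, 6.78, 5.13, 3.84 and 3.48 in SM, against 4.45 to 5.21 in WAT arrays and 2.43 to 3.02 in LIV arrays. Apoa4, an apolipoprotein of gut and liver, read 4.38, 4.54, 8.13, 4.23 and 4.49 in SM, against 4.37 to 5.03 in WAT arrays and 9.66 to 10.06 in LIV arrays, with SM 3 alone high. SM 3 was also the SM array with the highest mean of hepatocyte markers, 5.70.

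In 279 genes SM was higher than WAT and lower than LIV, and in 1123 lower than WAT and higher than LIV. Bdh1, which interconverts the ketone bodies, averaged 6.79 ± 0.50 in SM, 3.74 ± 0.14 in WAT and 9.87 ± 0.08 in LIV. Slc38a3, a glutamine carrier, read 9.34 to 10.14 in the SM arrays, against 4.91 to 6.09 in those of WAT and 12.28 to 12.42 in those of LIV, with the groups apart. Car8, a carbonic anhydrase-related protein, averaged 6.90 ± 0.15 in SM, 4.33 ± 0.12 in WAT and 9.70 ± 0.05 in LIV, and the mitochondrial adenylate kinase Ak4 7.50 ± 0.40 in SM, 5.21 ± 0.20 in WAT and 10.49 ± 0.10 in LIV. In the other direction Aoc3, an amine oxidase, read 9.28, 8.27, 8.83, 6.64 and 7.20 in SM, against 11.80 to 12.01 in WAT arrays and 3.46 to 3.97 in LIV arrays, and Nnat, Plin1 and Hoxc8 followed. Hoxc8, a homeobox gene of the trunk, read 7.64 to 8.57 in the SM arrays, against 11.60 to 11.68 in those of WAT and 4.48 to 4.65 in those of LIV. Aoc3, Nnat and Plin1 had their lowest SM reading in SM 4, and Hoxc8 in SM 5.

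The same contrasts in mice fasted for 24 h gave 2778 genes higher in SM than in both tissues (14.8%) and 2255 lower (12.0%). Of the 2724 genes higher in fed SM, 2252 (82.7%) were called higher in fasted mice too and 1 was called lower, and of the 2385 genes lower in fed SM, 1867 (78.3%) were called lower and 0 higher. Of the genes at least 4-fold different in fed mice, 495 of 497 higher and 220 of 224 lower genes were called the same way in fasted mice. The call in fasted mice needed 1.3-fold, not 4-fold. Mir1a-2, for one, differed in fasted mice by only 0.81 against WAT and 0.84 against LIV. The genes not called the same way, named after their values were seen, were the melanocortin receptor Mc5r and the protease Prss55 on the high side and Aacs, Gpt, Lcn2 and Thrsp on the low side. Mc5r averaged 8.67 ± 0.19 in SM, 5.40 ± 0.40 in WAT and 3.97 ± 0.19 in LIV in fed mice, with LIV dim, and its difference from WAT was -0.999 in fasted mice. Thrsp, a regulator of lipid synthesis, differed in fed mice by -3.72 (SE 0.20) against WAT and -2.11 (SE 0.21) against LIV, and in fasted mice by -3.39 and -0.36. The mean of slow-fibre markers was 8.26 to 9.76 in 4 fasted SM arrays, within the range of the fed ones.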

How the data were processed

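Total RNA of each tissue was hybridised to Affymetrix Mouse Gene 1.1 ST arrays. The deposited values are log2 signals that the authors made by RMA (background correction, quantile normalisation and summary of the probes of each probe set) in Partek Genomics Suite, for 28815 probe sets on 30 arrays. Quantile normalisation removes differences in total signal between arrays, so a difference in RNA per cell cannot be seen. The number of arrays limits the precision. The labels call the arrays biological replicates, and p-values measure the spread between them.

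In the platform annotation 21153 probe sets name 1 gene, 1867 several, and 5795 are not listed. The probe set of highest mean over the 14 fed arrays, among those naming 1 gene, stood for its gene. RefSeq's promoter table matched 14723 of 18781 genes by symbol. Fed LIV array 4 was left out, as in the study. Of the fasted SM arrays, 5 was left out because earlier results of these data showed it to stand apart, whereas the study's text names 1. The mean of 8 lymphocyte markers was 7.81 in array 5, against 3.82 to 4.00 in arrays 1 to 4.

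limma 3.58.1 in R 4.3.3 fitted 1 mean per tissue, with Benjamini-Hochberg adjustment over all probe sets in each contrast. Calls needed an adjusted p under 0.05 and a 1.3-fold difference. Exact permutation tests were two-sided, with p as the smaller tail doubled. On simulated data for 28815 probe sets in the contrasts of fed SM with both tissues, 50 of 67 changes of 1.5-fold, 64 of 67 of 2-fold and 66 of 66 of 4-fold were recovered, with 0 false calls. Before changes were added to SM in a small part of them, simulated probe sets had 1 mean and 1 spread in all tissues. The real tissues differed in many genes and in spread, so the 0 false calls do not measure the error rate here.

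Named genes were Acta1, the 15 largest rises and 12 largest drops against both tissues without overlap of arrays, up to 4 higher and 3 lower members of each list, 4 genes in each direction between the tissues, markers, and the 10 widest over SM. List members named outside this rule were chosen after their values were seen. The genes and lists were chosen with earlier results of these data known. Fasted arrays entered the fasted contrasts, the interaction of tissue and feeding, and the alternative fit of all 6 groups. Further alternatives were the left-out LIV array, the replicate number as a block, dim probe sets, thresholds, 3 other scalings, probe set means, no moderation, and each array left out.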

Additional observations from a re-analysis of the deposited data

Results flagged for a closer look

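In SM, array 1 stood apart from the other 4 in Myh4, the only marker of the fastest fibres (12.87, against 12.76 to 12.79). In LIV, array 3 stood apart in the mean of hepatocyte markers (12.53, against 12.46 in the other arrays). Of 82 groups of arrays looked at in this way, about 1 in 20 would be singled out by chance.

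Calm2, which encodes calmodulin, was higher in SM than in both tissues in fed mice and lower than both in fasted mice. It averaged 8.84 in fasted SM, 9.35 in fasted WAT and 9.41 in fasted LIV, and 10.34 in fed SM, 9.39 in fed WAT and 9.39 in fed LIV. The difference of fasted from fed mice in the SM contrast was -1.46 against WAT and -1.51 against LIV (limma interaction, adjusted p = 2.06e-09 and 1.66e-09). In fed mice all 3 probe sets of that name had higher means in SM. The values in fasted mice are of the probe set that stood for the gene, and the reversal was not checked in the others. Calm2 was picked out after its values were seen, and calmodulin is encoded by more than 1 gene of similar sequence.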

How the results depend on the processing

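Acta1, the 15 genes with the largest rise and the 12 with the largest drop kept their direction and call under every alternative run, while Tnnc1 and Tnni1 lost theirs with SM 4 and SM 5 alone. Counts stayed within 1.5 times of the main ones except under a higher minimum fold: at 2-fold 1192 genes were higher and 940 lower in SM than in both tissues, and 5563 probe sets differed from WAT and 6153 from LIV, and at 4-fold 497 and 224 genes and 1731 and 2781 probe sets. The share of higher genes among those called was 68.9% at 4-fold, against 53.3% at 1.3-fold. With each array left out in turn, 2701 to 2766 genes were higher, 2344 to 2409 lower, 11868 to 12119 probe sets differed from WAT and 12150 to 12413 from LIV. Samples with the same replicate number did not deviate together (r from -0.06 to 0.16 over 13 pairs, 1 of them over 0.1), and no source used here ties a number to a mouse, so the numbers were not taken as pairs; that they mark the same mouse is not excluded by this. With the replicate block 2735 genes were higher and 2391 lower, and 11993 probe sets differed from WAT and 12358 from LIV. The same number correlated best in 3 of 13 pairs. Centring each array on its median put the median of all genes at 0.10 against WAT. With fasted SM array 1 left out in place of 5, 2617 genes were higher and 2127 lower than both tissues in fasted mice, against 2778 and 2255. Differences from dim readings depend on background, and only those against the dim level are lower bounds.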
